A study of Danio rerio with 4 samples.

Results

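The Id genes and the inhibitory Smads are the genes by which a cell registers bone morphogenetic protein (BMP) signalling and holds it in check. In these coronary endothelial libraries 8 of the 10 genes had log2 fold changes within 1 unit of 0 and one, id2b, stood apart. Its level in the regenerating gate was 0.318 times that in the non-regenerating gate, a difference that did not pass the test over all genes. The set was defined by gene symbol and not by a cut on measured values: id1, id2a, id2b, id3, id4, smad6a, smad6b, smad7, bambia and bambib. It was chosen with earlier results of these data known. Each symbol matched 1 row, so 10 of the 20306 genes in the table were taken.

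The libraries came from wild-type zebrafish whose ventricles had been cryoinjured, a freezing injury after which the zebrafish heart regrows muscle, and were collected 7 days later. All cells carried the red reporter labelled -0.8flt1:RFP and were RFP-positive, and the label gives them as coronary endothelial cells. The yellow reporter cxcr4a:YFP split them into 2 gates with 2 libraries each, headed Regenerating and Non-Regenerating in the table. The labels do not state which heading is which gate, and Regenerating was taken as RFP-positive, YFP-positive and Non-Regenerating as RFP-positive, YFP-negative from knowledge of the reporter lines. Both gates share the genotype, the injury and the time, there is no uninjured group, and the age of the animals is not given in the sources used here. Nothing says whether the 2 libraries of a gate came from separate animals, so every p-value below measures only how far these libraries lie apart, and that spread may be technical.

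BMP ligands bind paired receptor kinases, which phosphorylate Smad1, Smad5 and Smad9. These enter the nucleus with the common Smad and switch on a short list of direct targets, among which the Id genes and the inhibitory Smads are the most widely used readouts. Id proteins have a helix-loop-helix domain without the basic stretch that contacts DNA, and so hold E proteins away from their binding sites. In endothelium, Id proteins are known for their roles in vessel growth. Smad6 and Smad7 block the receptors and the receptor-activated Smads, Smad6 mainly in the BMP branch and Smad7 in the BMP and TGF-beta branches, and Bambi is a pseudoreceptor that lacks the kinase. Zebrafish keep a pair of duplicates of Id2, Smad6 and Bambi, so 6 of the 10 genes form 3 duplicate pairs.

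The values are normalized counts, rounded by the authors, and they are not corrected for gene length, so levels of different genes are not compared. The libraries summed to between 10481747 and 10761712 normalized counts. The gene cxcr4a itself, whose reporter set the gates, read 2285 and 2242 in Regenerating, against 585 and 590 in Non-Regenerating, while flt1 read 5496 and 5925 against 6595 and 6649. The 13 endothelial markers summed to between 72364 and 78188 in Regenerating and between 85957 and 88363 in Non-Regenerating, and none of them was at 0. Part of this gap lay in vwf, at 4126 and 5988 against 13350 and 9620. Of the 13, 11 had a fold change below 0, against 49.8% of all genes tested, and 2 above, with a median log2 fold change of -0.09. Regenerating replicate 1 stands apart in its heart muscle transcripts, with 12 cardiomyocyte markers summing to 37794 there, 12571 in Regenerating replicate 2, and 6360 and 3379 in the Non-Regenerating libraries. All 12 had a fold change above 0, against 8496 of all 16928 genes tested, with a median log2 fold change of 2.61. In 10 of them the gates did not overlap in that direction, against 21.8% of all genes. Leaving out Regenerating replicate 1 thus does not make the gates alike in these transcripts. The 12 macrophage markers summed to 6404 and 7271 against 2260 and 661, with much of the gap in gpnmb. Without gpnmb the other 11 summed to 3014 and 2625 against 2150 and 646. Of these, 8 overlapped between the gates and 3 did not, all 3 higher in Regenerating, against 21.8% of all genes. Neutrophil markers summed to 4850 and 4399 against 2912 and 2191, and lymphoid markers to 166 and 146 against 70 and 40. Most of the neutrophil counts lay in adam8a, at 3990 and 3464 against 2576 and 2068. All 5 tested neutrophil and all 4 tested lymphoid markers had a fold change above 0, against 8496 of all 16928 genes. Markers below the filter did not share this direction throughout. The neutrophil marker mpx read 1 and 3 against 9 and 4, and the lymphoid markers cd4-1, lck and zap70 overlapped between the gates. Results that rest on Regenerating replicate 1 are given with and without it.

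All 10 genes passed the low-value filter, which asks for 10 normalized counts or more in 2 or more libraries, and entered a limma fit of 16928 genes on the log2(value + 1) scale. None of the 10 was called at a Benjamini-Hochberg adjusted p under 0.05, with adjusted p-values from 0.189 to 0.988, and 1 of the 10 (id2b) had an unadjusted p under 0.05. Over all genes tested, 0.00591% were called, which is 1 gene, and 12.8% had an unadjusted p under 0.05, so the share among the 10 is near the background. In 5 of the 10 both Regenerating libraries read below both Non-Regenerating libraries (id1, id2b, smad6a, bambia and bambib), and in 2 they read above (id2a and id4). Over all genes the same holds for 21.5% and 21.8%, respectively, and for 43.2% in either direction. The 10 fold changes had a median of -0.09, against 0.00 over all genes.

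**Figure D1:**
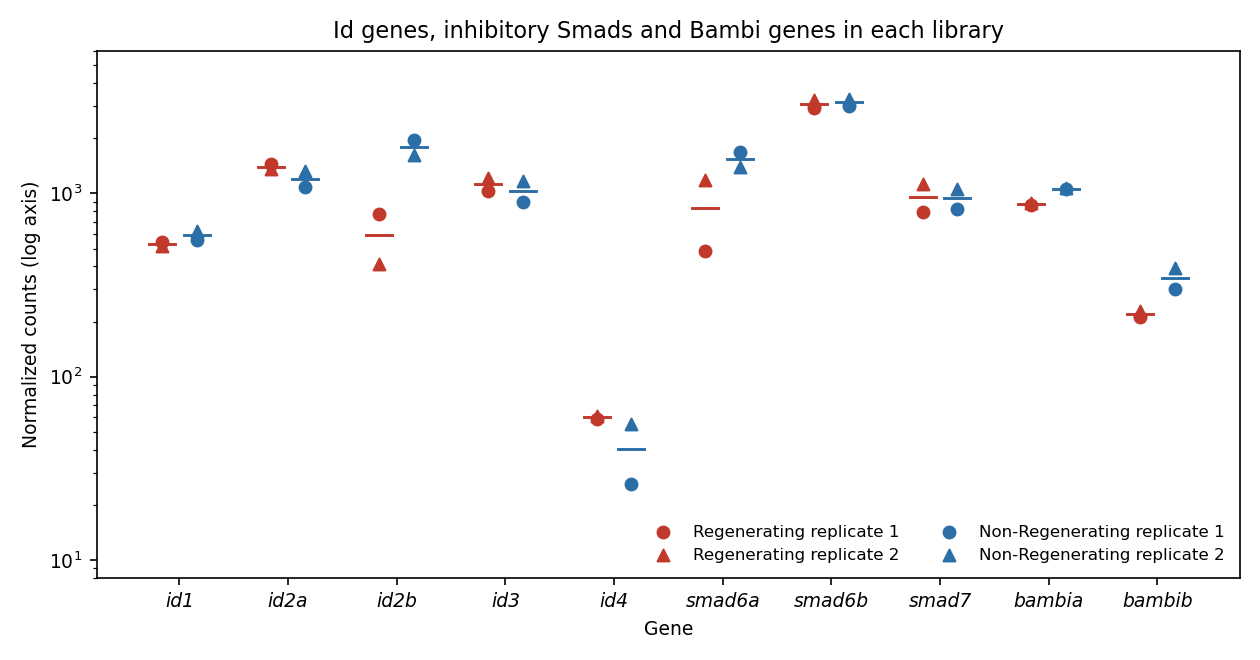
Normalized counts of each gene in each of the 4 libraries, on a log axis, with circles for replicate 1, triangles for replicate 2 and a short bar for the mean of each gate. The gap between the gates is widest for id2b, the Regenerating libraries lie far from each other for smad6a, and the libraries lie close together for smad6b.

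Among the 5 Id genes, id2b had the largest difference between the gates. It read 775 and 413 in Regenerating, against 1946 and 1629 in Non-Regenerating. Both Regenerating libraries lay well below both Non-Regenerating libraries, although they differed from each other by 1.88-fold. The means were 594 ± 256 and 1787.5 ± 224 (SD, n = 2 each). The log2 fold change was -1.65 (SE 0.328, 95% interval -2.49 to -0.81), a ratio of 0.318 with bounds of 0.178 and 0.569, with an unadjusted p of 0.0038 and an adjusted p of 0.189 by limma. The gene ranked 340 of 16928 by p, and 2.61% of all tested genes had a fold change at or below it. Leaving out Regenerating replicate 1 gave -2.11 and leaving out Regenerating replicate 2 gave -1.20, while leaving out either Non-Regenerating library gave -1.52 or -1.78. The gene (ENSDARG00000029544, chromosome 20, 29784927 to 29787210, minus strand, danRer11) overlaps no other gene of the table.

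Markers of endocardium, which lines the heart chambers, were lower alongside id2b. The marker lists in this paragraph were chosen with earlier results of these data known, so their counts are a description and not a test. Of 12 endocardial markers tested, 11 had a fold change below 0 and 9 did not overlap in that direction, against 49.8% and 21.5% of all genes tested, with a median log2 fold change of -1.80. Their summed level was 19290 and 18772 in Regenerating against 28760 and 23218 in Non-Regenerating, and none was at 0. The cardiac transcription factor gene gata5 read 601 and 207 against 3586 and 1819, and nfatc1, a transcription factor gene of endocardium and valves, read 1768 and 2033 against 3225 and 2472. Within Regenerating, gata5, like id2b, was higher in replicate 1, while nfatc1 was not. The activin gene inhbaa was the one marker above 0, at 3523 and 3589 against 1667 and 2311. By contrast, klf2a, a flow-responsive transcription factor gene in the same list, read 3164 and 3700 against 3589 and 3903, overlapping between the gates. The related klf2b read 6352 and 6734 against 6946 and 7201, lower without overlap, at a log2 fold change of -0.11. Of 10 venous and lymphatic markers, 9 had a fold change below 0, with sums of 13038 and 11442 against 18991 and 16626. The part of either marker list in the id2b difference was not tested. In bulk libraries, fewer cells of a type and less RNA per cell cannot be told apart.

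In the zebrafish endocardium, Id2b has been linked to the neuregulin gene nrg1 through the E protein Tcf3b. In these libraries nrg1 read 9 and 1 in Regenerating, against 121 and 60 in Non-Regenerating. Its log2 difference was -4.27 (SE 0.952, adjusted p = 0.202 by limma), and this endocardial marker was singled out after its values were seen. Both Regenerating values of nrg1 lay below 10, the threshold of the low-value filter. The lower level was not particular to nrg1, since 11 of the 12 endocardial markers had a fold change below 0 and 1 above. Among the 11, the log2 difference was -3.64 for nrg2a and -3.15 for npr3. A link between id2b and nrg1 was not tested. The gene tcf3b read 1040 and 1126 against 1296 and 1125, with overlapping gates.

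The duplicate id2a did not share the direction of id2b. It read 1443 and 1360 in Regenerating, against 1081 and 1323 in Non-Regenerating. The gates did not overlap, but the lowest Regenerating value lay only just above the highest Non-Regenerating value. Its log2 fold change was 0.23 (SE 0.163, 95% interval -0.19 to 0.64, adjusted p = 0.646 by limma), and it ranged from 0.08 to 0.37 when any 1 library was left out. The gene lies on chromosome 17 (ENSDARG00000055283, 34805897 to 34808165, plus strand).

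The genes id1 and id3, the pair most often read as BMP output in endothelium, were close to level between the gates. The level of id1 was 544 and 517 in Regenerating, against 557 and 622 in Non-Regenerating. That is a small gap in one direction, with a log2 fold change of -0.15 and a 95% interval of -0.61 to 0.31 (adjusted p = 0.808 by limma). A gene on the opposite strand, CU207354.1, overlaps id1 (ENSDARG00000040764, chromosome 11, 18704191 to 18705303) and had between 2 and 8 normalized counts in any library. The level of id3 was 1035 and 1218 against 901 and 1170, and the gates overlapped. Its log2 fold change of 0.13 (95% interval -0.38 to 0.63, adjusted p = 0.858 by limma) was -0.06 without Non-Regenerating replicate 1. The intervals bound a difference in id1 at ratios of 0.656 to 1.24 and in id3 at 0.771 to 1.55. A change of the size seen in id2b lies outside both, while changes within these bounds cannot be read at this precision.

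The gene id4, known mainly from the nervous system, was sparse. It read 59 and 61 in Regenerating, against 26 and 55 in Non-Regenerating. Non-Regenerating replicate 1 alone set most of the gap: the log2 fold change of 0.65 (95% interval -0.66 to 1.96, adjusted p = 0.683 by limma) was 0.12 without that library and 1.18 without the other one.

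Summed over the 5 Id genes, the libraries held 3856 and 3569 normalized counts in Regenerating, against 4511 and 4799 in Non-Regenerating. The gap in this sum lay in id2b, since the other 4 Id genes summed to 3081 and 3156 against 2565 and 3170, with overlapping gates. As a share of all Id counts, id2b made up 20.1% and 11.6% in Regenerating, against 43.1% and 33.9% in Non-Regenerating. The share of id2a was 37.4% and 38.1% against 24.0% and 27.6%. These are shares of counts and not of molecules, since the genes differ in length.

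**Figure D2:**
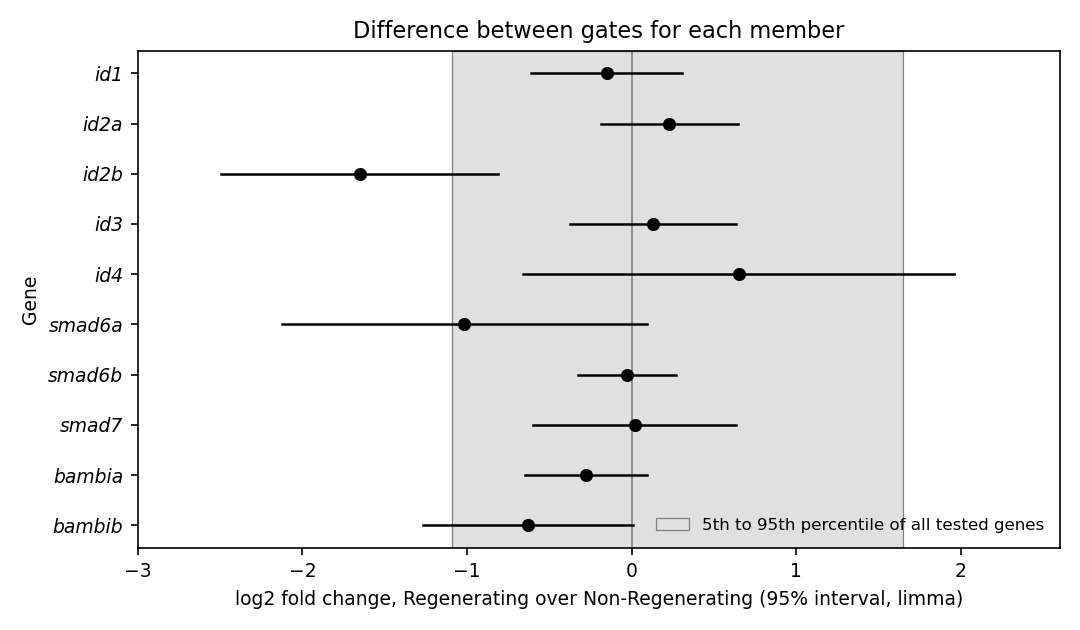
Log2 fold change of each gene, Regenerating over Non-Regenerating, as a point with its 95% interval from limma, over a grey band that spans the 5th to the 95th percentile of all 16928 tested genes. The point of id2b, at -1.65, lies below the band, smad6a lies near its lower edge at -1.02 with an interval that reaches 0.09, and the other 8 genes lie within the band.

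Among the 3 inhibitory Smads, smad6a had the largest difference between the gates. It read 486 and 1182 in Regenerating, against 1690 and 1393 in Non-Regenerating. The gates did not overlap, but the Regenerating libraries differed by 2.43-fold, the widest replicate gap of any of the 10 genes. The log2 fold change was -1.02 (SE 0.434, 95% interval -2.13 to 0.09, unadjusted p = 0.0654, adjusted p = 0.434 by limma). It was -0.38 without Regenerating replicate 1, the library rich in heart muscle transcripts, and -1.66 without Regenerating replicate 2, so its size rests on Regenerating replicate 1. The gene (ENSDARG00000053209, chromosome 7, 34182963 to 34192834, minus strand) overlaps no other gene of the table. It is also the only one of the 10 without a KEGG pathway term in the authors' annotation, where the other 9 carry the TGF-beta signalling term.

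Its duplicate smad6b had the most even level of the 10 across the libraries. It read 2941 and 3222 in Regenerating, against 3015 and 3260 in Non-Regenerating, so that the highest library exceeded the lowest by 1.11-fold. The log2 fold change was -0.03, with a 95% interval of -0.32 to 0.27 (adjusted p = 0.963 by limma), and it turned to 0.04 without Regenerating replicate 1 and to 0.03 without Non-Regenerating replicate 2.

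The gene smad7, whose product acts on the BMP and the TGF-beta branches, also overlapped between the gates. It read 796 and 1126 in Regenerating, against 826 and 1058 in Non-Regenerating. In each gate, replicate 2 was the higher library. Between the gates the log2 fold change was 0.02 (95% interval -0.60 to 0.64, adjusted p = 0.988 by limma), and the sign turned under trimmed-mean (TMM) scaling, to -0.00081, and without Regenerating replicate 2, to -0.23, or without Non-Regenerating replicate 1, to -0.16. A difference in smad7 of up to a ratio of 0.660 or 1.55 lies within its interval.

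Both pseudoreceptor genes read lower in both Regenerating libraries, and bambia had tight replicates. The level of bambia was 867 and 885 in Regenerating, against 1056 and 1070 in Non-Regenerating. Replicates differed by 1.02-fold and 1.01-fold, while the gates differed by 1.21-fold. The means were 876 ± 12.7 and 1063 ± 9.90 (SD, n = 2 each), with a log2 fold change of -0.28 (SE 0.145, 95% interval -0.65 to 0.09, adjusted p = 0.517 by limma). The standard error comes largely from the spread that limma borrows from other genes, since 2 libraries per gate leave 2 residual degrees of freedom.

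The level of bambib was 213 and 229 in Regenerating, against 300 and 391 in Non-Regenerating, where the replicates differed by 1.30-fold. Both Regenerating libraries again lay below both Non-Regenerating libraries. Its log2 fold change was -0.63 (SE 0.249, 95% interval -1.27 to 0.01, unadjusted p = 0.0516, adjusted p = 0.395 by limma), and it ranged from -0.82 to -0.44 when any 1 library was left out. The bambia fold change stayed between -0.29 and -0.26 in the same check. These genes lie on chromosome 12 (bambia, ENSDARG00000055381, 23424108 to 23430356) and chromosome 2 (bambib, ENSDARG00000099677, 4402765 to 4408818), both on the plus strand.

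Summed over the 5 inhibitory genes, the libraries held 5303 and 6644 normalized counts in Regenerating, against 6887 and 7172 in Non-Regenerating. Without smad6a the sums were 4817 and 5462 against 5197 and 5779, and the gates overlapped.

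The duplicates can be set against each other within a library, where depth and scaling cancel. The count of id2b relative to id2a was 0.537 and 0.304 in Regenerating, against 1.80 and 1.23 in Non-Regenerating. For smad6a relative to smad6b it was 0.165 and 0.367 against 0.561 and 0.427, and for bambib relative to bambia 0.246 and 0.259 against 0.284 and 0.365. In all 3 pairs the gates did not overlap, with log2 differences of -1.88, -0.99 and -0.35, respectively. Over all genes tested, 43.2% did not overlap in either direction, and no such share was computed for ratios. The ratios also reuse the member values given above, so they add no separate evidence. In each pair the copy with the lower fold change was set over the other, so the shared direction follows from that order. The exact two-sided permutation test over libraries gave p = 0.333 for each pair, which is the smallest value that 2 libraries against 2 allow, and the 3 adjusted values are the same. Leaving out Regenerating replicate 1 moved the smad6 difference to -0.42, leaving out Regenerating replicate 2 moved it to -1.56, and the bambi difference was -0.53 without the first Non-Regenerating library and -0.17 without the second. How reads that map to both copies of a pair were counted is not given in the sources used here.

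**Figure D3:**
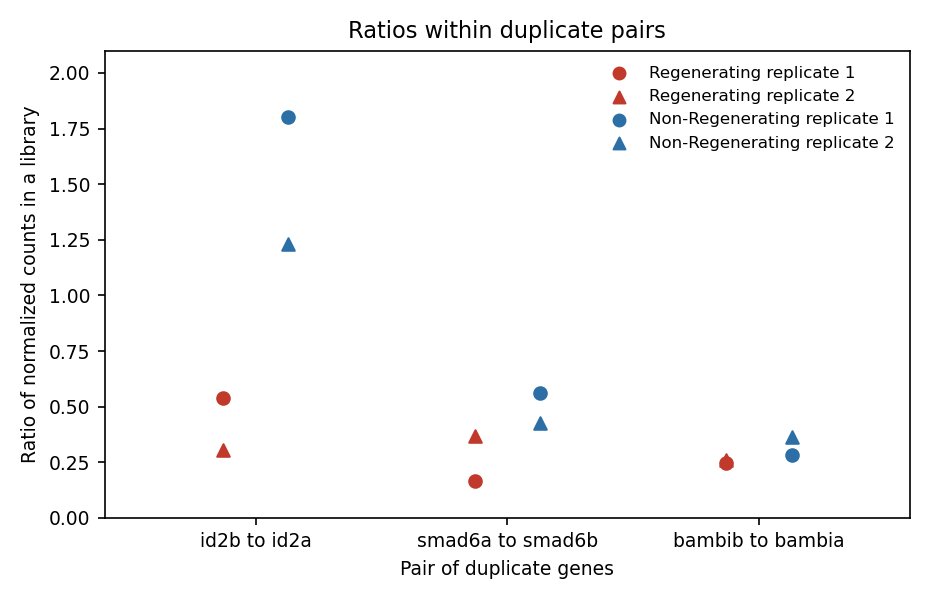
Ratio of the normalized counts of the duplicates in each library, on a linear axis from 0, with circles for replicate 1 and triangles for replicate 2. The id2b to id2a ratio is 0.304 to 0.537 in Regenerating and 1.23 to 1.80 in Non-Regenerating, while the bambi ratios of all 4 libraries lie between 0.246 and 0.365.

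The duplicate pairs also keep their neighbours on the chromosome, and the neighbours had values of their own. Next to id2a, at 1478 bp, lies kidins220a, and next to id2b, at 1283 bp, lies kidins220b, each on the strand opposite to its Id gene. The gene kidins220b read 1421 and 1074 in Regenerating, against 2451 and 1512 in Non-Regenerating, which is a log2 difference of -0.64 (adjusted p = 0.447 by limma) beside the -1.65 of id2b. The gene kidins220a read 41 and 44 against 20 and 25, for a log2 difference of 0.90 (adjusted p = 0.516 by limma) beside the 0.23 of id2a. Each of these 2 neighbours had the sign of its Id gene, without passing the test. On the other side of id2b, rnf144ab read 3001 and 3507 against 2571 and 3328, a log2 difference of 0.15, opposite in sign to id2b. On the other side of id2a, CR385035.1 read 13 and 17 against 5 and 10, with the sign of id2a. A shared effect on neighbouring genes was not tested.

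Next to smad6a, at 33700 bp, lies smad3a, and next to smad6b, at 73813 bp, lies smad3b, both of which encode Smads of the TGF-beta branch. The gene smad3a read 3011 and 3455 against 2671 and 2967, opposite in sign to smad6a. The gene smad3b read 390 and 356 against 268 and 298, a log2 difference of 0.40 beside the -0.03 of smad6b. The bambi genes are flanked by waca, at 8047 bp, and wacb, at 14762 bp. Both had log2 fold changes closer to 0 than their bambi neighbours (-0.20 for waca and -0.07 for wacb), with overlapping gates. Apart from rnf144ab and CR385035.1, these neighbours are the nearest listed gene on the side where both copies of a pair have matching neighbours. All were taken by position, with their values already seen.

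The rest of the pathway was read from 9 lists with 78 genes in the table, of which 73 were tested. By limma, none was called at an adjusted p under 0.05, and at an unadjusted p under 0.05 there were 15 lower and 3 higher in Regenerating, against 5.19% and 7.62% of all genes. Their median log2 fold change was -0.13. The lower genes were spread over ligands, receptors, antagonists, brakes and TGF-beta targets.

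Upstream, the BMP ligands spanned a wider range than the Id genes. Of 11 tested ligand genes, 5 were lower and 2 higher at an unadjusted p under 0.05, against 5.19% and 7.62% of all genes. Their log2 fold changes had a median of -1.19 and a range from -4.39 to 3.81. The 2 higher genes were bmp10l and gdf6a. In bmp10l, opposite in direction to bmp10, the values were 186 and 81 in Regenerating, against 12 and 5 in Non-Regenerating. In gdf6a they were 446 and 673 against 126 and 189. The gene bmp10, a ligand made in the heart that signals through the endothelial receptor Acvrl1, read 33 and 26 in Regenerating, against 1161 and 347 in Non-Regenerating, with an adjusted p of 0.164 by limma. The gene bmp6 read 153 and 100 against 622 and 454, with the same adjusted p, and it is also one of the endocardial markers above. The order of libraries in bmp6 is that of id2b, with Non-Regenerating replicate 1 highest and Regenerating replicate 2 lowest. Many other genes of the lists share this order, among them bmp10, bmp16, bmp4, bmpr1ab, acvr1ba, skia, ltbp1 and gata5, so it is not particular to bmp6. Such likeness cannot be ranked with 4 libraries, and a link between bmp6 and id2b was not tested.

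Of 10 receptor genes, 0 were higher and 1 lower at an unadjusted p under 0.05, against 7.62% and 5.19% of all genes. Their median log2 fold change was -0.13. The lower gene was the type I receptor gene acvr1l, at 1767 and 1794 against 2466 and 2128 (log2 fold change -0.36, adjusted p = 0.368 by limma). The gates did not overlap in the lower direction in 5 of the 10 and in the higher direction in 2, against 21.5% and 21.8% of all genes. Among those 2 was acvrl1, at 4007 and 4589 against 3221 and 3976. The type I receptor gene bmpr1ab read 501 and 263 in Regenerating, against 1674 and 543 in Non-Regenerating, where 1 library held most of the difference. Among the 5 BMP and common Smads none had an unadjusted p under 0.05. The gene smad9, itself a known BMP target, read 1341 and 1532 against 1557 and 2162, and the common Smad gene smad4a 185 and 227 against 271 and 269.

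In the TGF-beta branch, 2 of 9 receptor and Smad genes were lower at an unadjusted p under 0.05 and none higher. Over all genes the shares were 5.19% lower and 7.62% higher. The type II receptor gene tgfbr2a read 225 and 241 in Regenerating, against 411 and 528 in Non-Regenerating, and the activin receptor gene acvr1ba 1441 and 1167 against 2365 and 1772. Of 6 TGF-beta and Smad3 target genes, 2 were lower at that threshold, namely ltbp1, which encodes a latent TGF-beta binding protein, at 135 and 116 against 511 and 226, and tgfbi, a matrix protein gene, at 1282 and 1441 against 1838 and 2874. The targets ccn2a, ccn2b and tagln overlapped between the gates.

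Besides the inhibitory Smads and the bambi genes, cells carry other brakes on Smad signalling. Of 13 intracellular brakes tested, 3 were lower at an unadjusted p under 0.05 and none higher, with a median of -0.13. Over all genes the shares were 5.19% lower and 7.62% higher. The 3 lower genes all belong to the Ski and SnoN corepressors, which bind Smads in the nucleus. The gene skia read 2727 and 2635 in Regenerating, against 4729 and 4033 in Non-Regenerating (log2 fold change -0.70, adjusted p = 0.176 by limma), skila 479 and 479 against 755 and 654, and skib 1749 and 1864 against 2219 and 2305. The related skilb read 2119 and 2168 against 1928 and 2236, and its gates overlapped. The Smad ubiquitin ligase genes went different ways, with smurf1 at 1100 and 1080 against 993 and 1054 and smurf2 at 728 and 746 against 1090 and 854.

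Outside the cell, 14 antagonist genes were found and 10 tested. At an unadjusted p under 0.05 by limma, 2 were lower and none higher, against 5.19% and 7.62% of all genes. Of the 10, 4 had a fold change above 0 and 6 below, with a median log2 fold change of -0.04. The 2 lower genes were smoc2, a matrix protein gene, at 21 and 6 against 60 and 74, and crim1, which encodes a BMP-binding membrane protein, at 1608 and 1330 against 1867 and 2025. By contrast, bmper read 35 and 11 against 8 and 0, higher without overlap. The gene smoc1 read 83 and 409 against 26 and 95, with overlapping gates. The genes nog1, nog2, nog3 and chrd, which encode the classical BMP traps noggin and chordin, did not pass the low-value filter, and none of them exceeded 11 in any library.

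Of 5 other genes known to respond to BMP, 4 had a fold change above 0 and 1 below, against 8496 of all 16928 genes above 0. The gates did not overlap in the higher direction in 2 of these 5 genes and in the lower direction in 1, against 21.8% and 21.5% of all genes. Among them, hey1, a transcription factor gene that Notch also controls, was higher at an unadjusted p under 0.05, at 469 and 570 in Regenerating, against 144 and 292 in Non-Regenerating (log2 fold change 1.33, adjusted p = 0.284 by limma). The related hey2 read 741 and 1143 against 626 and 591. The transcription factor gene atoh8 read 1347 and 1829 against 957 and 1982, and its gates overlapped. The transcription factor gene gata2a went the way of id2b, at 1108 and 1589 against 1991 and 1679, without overlap (log2 fold change -0.46, adjusted p = 0.476 by limma).

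The partners that Id proteins bind were close to level. The E protein genes tcf3a (1398 and 1819 against 1040 and 1647), tcf3b and tcf12 (5401 and 5832 against 4976 and 6678) all overlapped between the gates. The helix-loop-helix gene tal1, known for its role in blood and endothelium, read 739 and 870 against 991 and 1049, lower without overlap. Its log2 difference was -0.35 (adjusted p = 0.481 by limma).

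**Figure D4:**
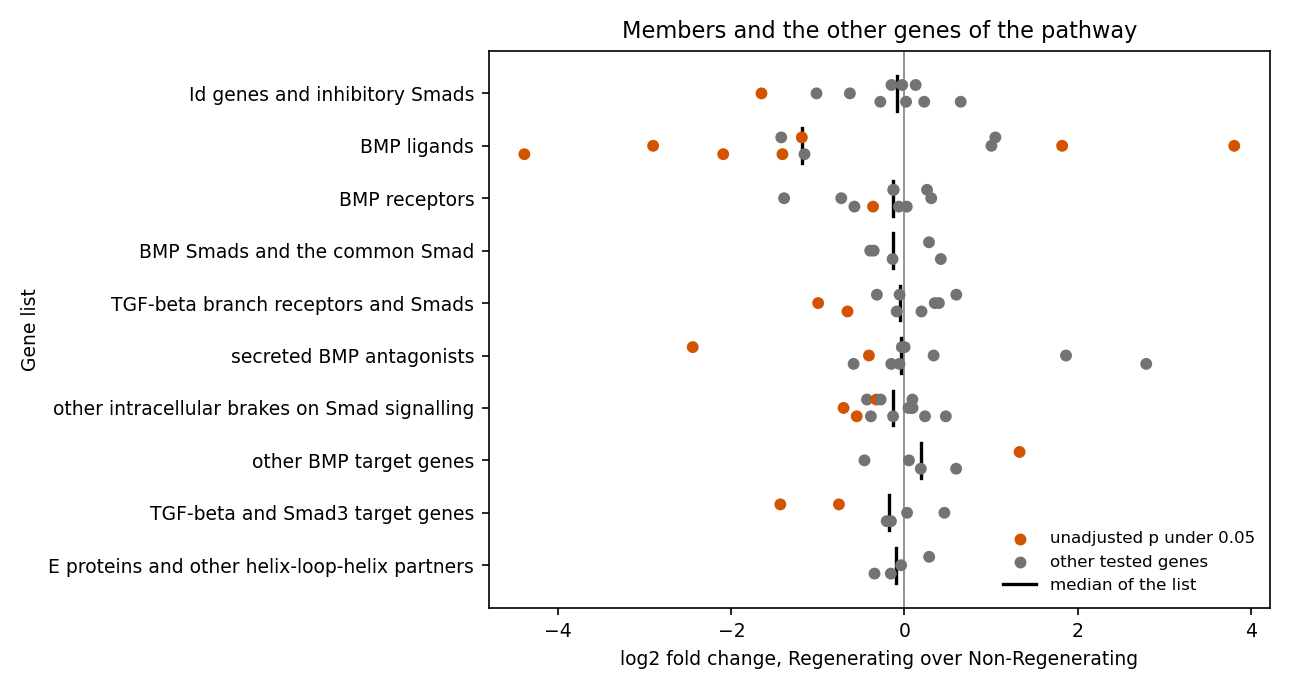
Log2 fold change, Regenerating over Non-Regenerating, of every tested gene in the set of 10 and in 9 lists of other pathway genes, with a vertical bar for the median of each list and orange for genes with an unadjusted p under 0.05. The BMP ligands spread from -4.39 to 3.81, while the set of 10 spreads from -1.65 to 0.65 with id2b as its orange point.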

How the data were processed

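Bulk RNA sequencing of 4 libraries was analysed. Per the labels' protocols, full-length cDNA was pre-amplified with a SMART-Seq kit from about 5 ng of RNA. The submitters' processing notes name the build danRer11 and, without roles, DESeq2 1.36.0, featureCounts 2.0.4, Picard 3.1.1, STAR 2.7.11a and Trimmomatic 0.39. Strand use and removal of duplicate reads are not given in the sources used here. The deposited values are normalized counts rounded to whole numbers by the authors, recorded as a score because they are not raw counts, so no count model was run. Each heading was matched to a gate as stated above, with its replicate number, and 0 columns of values were left unused.

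Genes reaching 10 in 2 or more libraries were fitted as log2(value + 1) with limma 3.58.1 in R 4.3.3 (mean-variance trend, 2 residual and 3.08 prior degrees of freedom, two-sided, Benjamini-Hochberg over 16928 genes). The fold change of low genes is understated on this scale. Tested on simulated data of the same 16928 genes for this comparison, 2% of genes with a true log2 difference of 1 were called, 30.4% at 2 and 0.0227% of unchanged genes. Variances in the simulation were drawn from the fitted prior, so these shares may not hold for the measured genes. The 10 genes, the 9 pathway lists and the 10 cell type lists were chosen with earlier results of these data known. These lists hold 202 other names, of which 175 matched 1 row, 24 matched none and 3 matched several and were left out. Beside the 10 genes, the text names in each pathway list the 2 tested genes with the smallest unadjusted p, cxcr4a and flt1. The neighbours were taken by position, and the other names (in the marker lists and the further pathway genes) were chosen after their values were seen. Promoter motifs were not analysed here. One listed target gene is not reported here by name. Alternatives were other pseudocounts, filters and scalings, no variance trend, a replicate block and leaving out each library.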

Additional observations from a re-analysis of the deposited data

How the results depend on the processing

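With 2 libraries per gate, 1 of 16928 genes was called, and replicates set most limits. Large differences can also go uncalled, as for gpnmb at a log2 fold change of 6.56 (adjusted p = 0.161 by limma). None of the 10 genes was called under other pseudocounts, filters or scalings, without the variance trend or without any 1 library. The sign held for id1, id2a, id2b, id4, smad6a, bambia and bambib in all 13 alternatives. Leaving out 1 library moved id3 between -0.0594 and 0.317, smad6b between -0.0922 and 0.0394 and smad7 between -0.232 and 0.268, and the pathway gene tcf3a between -0.0465 and 0.616. With TMM scaling smad7 was at -0.00081.

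The labels number the libraries 1 and 2 in each gate but do not say that a number marks a shared animal or day. Same-numbered libraries deviated together (correlation across genes 0.339), a hint from 2 pairs only. With the replicate number as a block, which leaves 1 residual degree of freedom, 357 genes were called against 1 without it, among them id2b (log2 fold change -1.65, adjusted p = 0.0389 by limma) and 5 of the 73 pathway genes (bmp6, bmp10, bmp10l, gdf6a and skia). The block called none of the other 9 genes. Without the variance trend limma called 0 genes, with 2026 at an unadjusted p under 0.05, and without any 1 library it also called 0, with 1074 to 2101 at that threshold.

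The log2 ratio of the summed inhibitory genes, -0.235, ranged from -0.407 without Regenerating replicate 2 to -0.0814 without Regenerating replicate 1. Between 5 and 7 of the 10 genes did not overlap in the lower direction when 1 library was left out, against 34.5% to 37.7% of all genes, a check added after the data were seen.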
